A study of Sus scrofa with 12 samples.

Results

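The genes examined here encode 5 families of membrane transporters in testis and epididymis of adult boars. SLC22A genes encode carriers of organic ions and carnitine, SLC16A genes the monocarboxylate transporters, SLCO genes the organic anion transporting polypeptides, SLC5A genes the sodium-coupled sugar and vitamin transporters, and SLC2A genes the facilitative sugar transporters. All gene rows whose name begins with one of these 5 family names followed by a digit were taken, which gave 63 of 30640 rows, namely 17 SLC22A, 14 SLC16A, 9 SLCO, 12 SLC5A and 11 SLC2A rows. The rule uses names alone and no measured value. One of them, SLC2A4RG, fits the naming rule but encodes a regulator of SLC2A4 transcription and not a transporter. No row carried the names SLC22A5, SLC2A1 or SLC2A3, so the family counts, sums and shares below leave these genes out.

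Germ cells behind the blood-testis barrier depend on what Sertoli cells pass on, above all lactate, and monocarboxylate transporters carry it across both membranes. Sperm in the epididymis meet a fluid in which carnitine, inositol and other small solutes are concentrated by the duct epithelium. Organic anion transporters move steroid conjugates, prostaglandins and thyroid hormones, and sodium-coupled carriers take up sugars, inositol and vitamins against their gradients.

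The animals were adult, untreated boars of an inbred line of Banna mini-pigs, and each tissue had 5 short-read RNA libraries, numbered 1 to 5. The animal numbers 21, 23, 25, 27 and 29 recur in the headers of both tissues, so each number stands for 1 boar that gave both organs. By the labels the boars were 12 months old, but the headers state 12, 12, 11, 17 and 11 months for replicates 1 to 5. The protocol text speaks of 5 mixed samples per tissue without saying which libraries this covers, and each short-read header names 1 animal. The RNA was of bulk organ, the labels name no segment of the epididymis, and 2 long-read libraries made from pooled boars were not used here.

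Testis libraries held 18715154 to 30211957 counted reads and epididymis libraries 17980578 to 21937263. Levels are in CPM, the count per 1000000 reads of a library, and a count of 0 in 1 library allows up to 0.0993 to 0.167 CPM. The tissue labels were borne out by marker sums. The 7 haploid germ cell markers summed to 10959 to 13786 CPM in testis and 20.8 to 463 CPM in epididymis, 4 of 6 Leydig cell markers had a row and summed to 12071 to 19252 CPM in testis and 26.3 to 33.6 CPM in epididymis, and 4 of 6 principal cell markers had a row and summed to 0.0463 to 0.666 CPM in testis and 269 to 7374 CPM in epididymis. Among the last, CRISP1 had 0 reads in all testis libraries. In each tissue 1 library stood apart. Testis replicate 4 held 71.0 CPM of small structural RNAs, against 15043 to 16185 CPM in the other testis libraries and 71.8 to 132 CPM in epididymis. In this measure it was thus like the epididymis libraries, and testis replicates 1, 2, 3 and 5 differed from all of them. For those testis libraries the difference in this RNA fraction cannot be told apart from tissue. Epididymis replicate 3 had the lowest principal cell sum, 269 CPM against 5164 to 7374 CPM in the other epididymis libraries, together with the highest sums of haploid germ cell markers (463 against 20.8 to 69.3 CPM) and of the 4 clear cell markers (158 against 1.37 to 3.17 CPM). Among the transporters of at least 1 CPM on average, 9 of 43 lay at least 4-fold above or below all other epididymis libraries in that library, which is 20.9%, against 5.39% of all rows. The part of these libraries and of cell make-up in the results was not tested, and values without a library are given where it moves a call or a fold. Because whole tissue was sequenced, fewer cells of a type and less RNA per cell cannot be told apart.

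Of the 63 rows, 49 passed the filter on low counts and were tested with edgeR's quasi-likelihood test within the fit of 17225 genes. Of the 49, testis had the higher level for 15 and epididymis for another 15, at a Benjamini-Hochberg adjusted p under 0.05 over all genes tested. Over all genes, 36.6% were called in favour of testis, 37.8% in favour of epididymis and 74.4% in either direction, beside 30 of the 49 transporters. Beyond 2-fold, by edgeR's glmTreat, 12 were higher in testis and 13 in epididymis, against 27.3% and 23.4% of all genes. In 12 of the 49 tested members the lowest testis library exceeded the highest epididymis library and in 12 the reverse held, against 32.1% and 29.3% of all genes tested. The median log2 fold change, testis over epididymis, was 0.20 over the 49 tested members and -0.07 over all genes tested. Each of the 5 families held members on both sides, as the plots of the values by library and of the fold changes show.

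**Figure D1:**
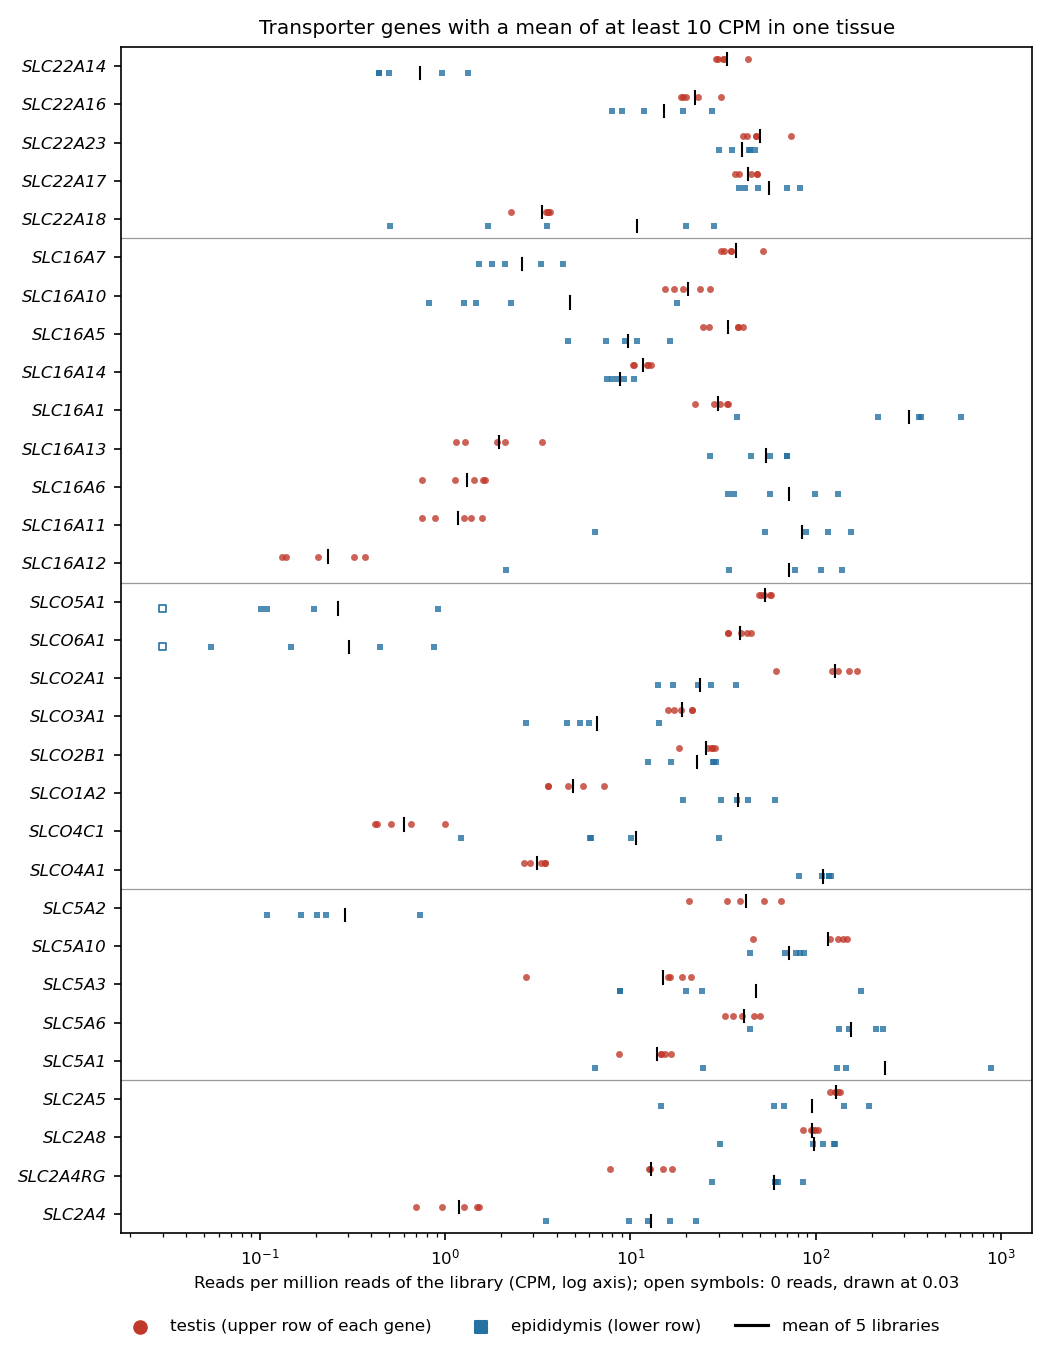
Level of the 31 transporter rows with a mean of at least 10 CPM in one tissue, in each of the 5 testis libraries (circles, upper row of each gene) and the 5 epididymis libraries (squares, lower row), on a log axis in CPM; the vertical mark is the mean of a tissue and open symbols are libraries with 0 reads. Testis values cluster tightly for most genes, whereas epididymis values of SLC5A1 run from 6.43 to 878 CPM, and SLCO5A1, SLCO6A1 and SLC5A2 in testis and SLC16A12 in epididymis are the most one-sided.

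**Figure D2:**
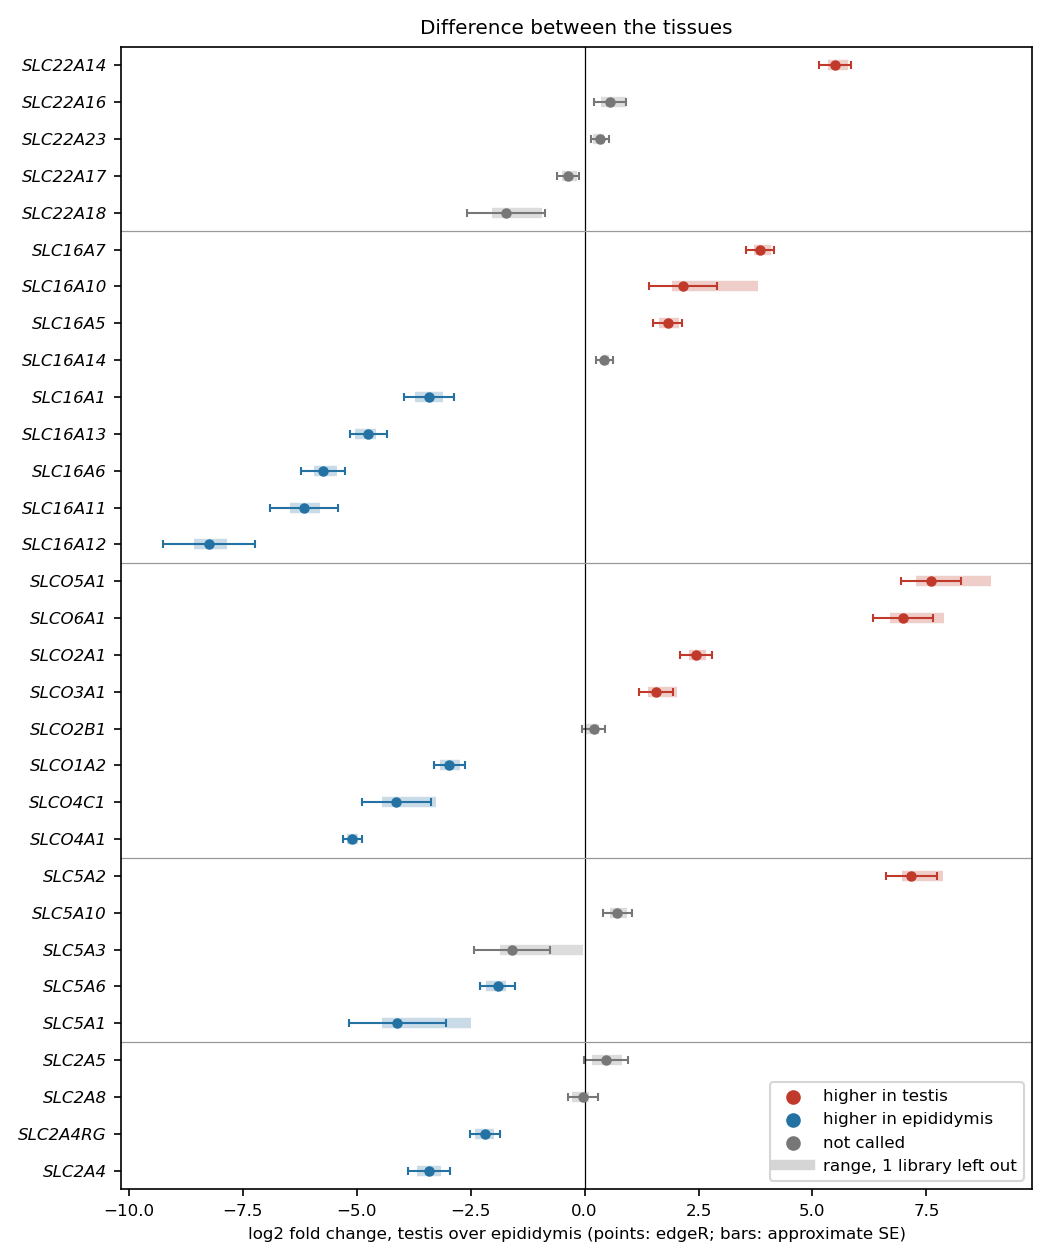
Log2 fold change, testis over epididymis, of the same 31 rows from edgeR, with the approximate standard error as a thin bar and the range over fits that leave out 1 library as a pale band; red is higher in testis, blue higher in epididymis and grey not called. The values run from 7.60 for SLCO5A1 to -8.24 for SLC16A12, and the band is wide for SLC16A10, SLC5A1 and SLC5A3.

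Organic ion and carnitine transporters of the SLC22A family were called in 4 of 11 cases. Of the 17 rows 11 were tested, 3 of them were higher in testis, 1 was higher in epididymis and 7 were not called. Over all genes 36.6% were called higher in testis, 37.8% higher in epididymis and 74.4% in either direction, and the family was not tested against these shares. One member separated the tissues widely, SLC22A14, a carrier found in male germ cells and needed for sperm function in mice. SLC22A14 (chromosome 13, 23148924 to 23162263, build Sscrofa11.1) stood, in the order of replicates 1 to 5, at 28.9, 29.6, 31.7, 43.1 and 32.0 CPM in testis, against 0.967, 0.438, 1.32, 0.501 and 0.441 CPM in epididymis. Every testis library was far above every epididymis library, with testis replicate 4 the highest. The level was 45.0-fold higher in testis (log2 5.49 ± 0.35, edgeR adjusted p = 1.09e-07, SE approximate throughout).

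SLC22A16 is described in humans as a carnitine transporter of testis. It stood at 23.1, 18.8, 19.9, 30.7 and 19.2 CPM in testis, against 8.96, 27.6, 11.8, 7.95 and 19.2 CPM in epididymis. The ranges overlapped, since epididymis replicates 2 and 5 reached the testis level while the other 3 lay lower, and the difference was not called (log2 0.56 ± 0.35, edgeR adjusted p = 0.169). Without epididymis replicate 2 it was called higher in testis (log2 0.92, edgeR adjusted p = 0.0192). SLC22A4, whose best known substrate is ergothioneine and which also carries carnitine weakly, was low in both tissues at 1.36 ± 0.369 CPM in testis and 4.59 ± 2.38 CPM in epididymis (SD, n = 5 for each tissue, as for all averages below). All epididymis libraries lay above all testis libraries, and the gene was higher in epididymis (log2 -1.72 ± 0.37, edgeR adjusted p = 0.00109).

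A further pair of members was well expressed in both tissues and called in neither direction. SLC22A17, which encodes a receptor for lipocalin 2, stood at 48.1, 48.1, 44.7, 36.7 and 38.7 CPM in testis, against 49.0, 81.9, 69.6, 41.6 and 38.8 CPM in epididymis. Epididymis replicates 2 and 3 were the highest of all libraries, and the ranges overlapped (log2 -0.36 ± 0.24, edgeR adjusted p = 0.192, not called). SLC22A23, a family member without an established substrate, stood at 47.4, 40.3, 47.9, 73.3 and 42.8 CPM in testis, against 43.5, 35.4, 47.0, 30.0 and 44.2 CPM in epididymis. Apart from testis replicate 4, which was the highest, the tissues shared a range (log2 0.34 ± 0.21, edgeR adjusted p = 0.157, not called).

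SLC22A18, an orphan member, had its levels spread in epididymis and not in testis, at 3.59, 3.57, 3.52, 3.69 and 2.26 CPM in testis, against 19.9, 28.4, 0.501, 3.56 and 1.71 CPM in epididymis. Epididymis replicates 1 and 2 were above every testis library, replicate 4 was level with them and replicates 3 and 5 were below. The difference was not called (log2 -1.72 ± 0.85, edgeR adjusted p = 0.0864), and leaving out epididymis replicate 3 brought a call in favour of epididymis (log2 -2.04, edgeR adjusted p = 0.0131), as did leaving out replicate 5 (log2 -2.01, edgeR adjusted p = 0.045). Without epididymis replicate 2 the log2 was -0.94 (edgeR adjusted p = 0.312), and no call was made.

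The remaining SLC22A genes were below 10 CPM on average. SLC22A15, a carrier of zwitterions in humans, averaged 6.42 ± 1.39 CPM in testis and 2.80 ± 2.11 CPM in epididymis and was higher in testis (log2 1.24 ± 0.42, edgeR adjusted p = 0.0183), with overlapping ranges because epididymis replicate 3 reached 6.34 CPM. SLC22A13, a transporter of nicotinate and urate, averaged 1.46 ± 1.09 CPM in testis and 0.447 ± 0.244 CPM in epididymis and was higher in testis (log2 1.75 ± 0.66, edgeR adjusted p = 0.0281). That call was lost when any of testis replicates 2 and 5 or epididymis replicates 2, 3 and 5 was left out (edgeR adjusted p = 0.0502 to 0.0858) and with the boar as a block (log2 1.50, edgeR adjusted p = 0.11), and with testis replicate 4 alone for testis its log2 was -1.34.

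SLC22A3, the extraneuronal monoamine and organic cation transporter, averaged 5.63 ± 7.39 CPM in testis and 5.74 ± 4.97 CPM in epididymis with 1 high library in each tissue, 18.8 CPM in testis replicate 2 and 14.3 CPM in epididymis replicate 3. It was not called (log2 0.06 ± 0.76, edgeR adjusted p = 0.945). SLC22A6, a renal organic anion transporter, averaged 3.61 ± 1.78 CPM in testis and 2.64 ± 3.93 CPM in epididymis and was not called (log2 0.49 ± 0.86, edgeR adjusted p = 0.622), with 9.57 CPM in epididymis replicate 3. Without that library it was called higher in testis (log2 1.99, edgeR adjusted p = 0.0149).

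The other 6 rows of the family did not pass the filter. SLC22A7, an organic anion transporter of liver and kidney, held 149 reads in testis and 10 in epididymis, and its 5 testis libraries, at 0.321 to 2.22 CPM, all lay above the epididymis libraries, at 0 to 0.222 CPM. SLC22A2, the organic cation transporter of kidney, held 55 reads in testis and 28 in epididymis. SLC22A12, the urate exchanger of kidney, held 11 reads in testis, in replicates 1 to 3, and 0 in epididymis, at least 3.07-fold higher in testis against a floor of 3 reads over the tissue. SLC22A8 held 12 reads in testis and 3 in epididymis, 3.44 times as many relative to the totals, with counting limits of 0.927 and 19.0 at 95% confidence. SLC22A9 had 1 read in each tissue and SLC22A11 had none.

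All 14 rows of monocarboxylate transporters of the SLC16A family were tested, of which 3 were higher in testis, 6 were higher in epididymis and 5 were not called. Over all genes 36.6% and 37.8% were called in these directions, and the family was not tested against them. MCT2 and MCT1, both carriers of lactate, fell on opposite sides. SLC16A7, or MCT2, a carrier with high affinity for lactate and pyruvate, was high in testis, and SLC16A1, or MCT1, the widespread carrier of lactate, pyruvate and ketone bodies, was high in epididymis.

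SLC16A7 (chromosome 5, 24713009 to 24871891) stood at 34.9, 31.9, 31.0, 51.9 and 34.9 CPM in testis, against 1.78, 1.53, 4.33, 3.28 and 2.11 CPM in epididymis. Testis replicate 4 was the highest, and every testis library was above every epididymis library. The level was 14.4-fold higher in testis (log2 3.85 ± 0.30, edgeR adjusted p = 4.79e-07). SLC16A1 (chromosome 4, 107510920 to 107547609) stood at 30.4, 28.1, 22.3, 33.3 and 33.8 CPM in testis, against 361, 217, 37.7, 611 and 371 CPM in epididymis. Epididymis replicate 3 came close to the testis range and the other epididymis libraries were far above it, with no overlap. The level was 10.6-fold higher in epididymis (log2 -3.41 ± 0.55, edgeR adjusted p = 0.000131). LRIG2 overlaps SLC16A1 on the chromosome, so some reads could belong to either gene. LRIG2 itself averaged 25.1 ± 5.90 CPM in testis and 47.1 ± 11.4 CPM in epididymis (SD, n = 5 for each tissue). SLC16A3, or MCT4, known for lactate export from glycolytic cells, was low at 3.53 ± 0.967 CPM in testis and 8.54 ± 3.55 CPM in epididymis. The ranges touched, since epididymis replicate 4 was level with testis, and the gene was higher in epididymis (log2 -1.26 ± 0.37, edgeR adjusted p = 0.00863) but not beyond 2-fold by glmTreat.

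SLC16A12, which carries creatine, was the member with the widest separation in favour of epididymis. SLC16A12 (chromosome 14, 101273977 to 101368350) stood at 0.205, 0.132, 0.139, 0.321 and 0.370 CPM in testis, against 77.1, 34.0, 2.14, 107 and 138 CPM in epididymis. Testis held 26 reads in all, and epididymis replicate 3 was the lowest of its tissue. The level was 302-fold higher in epididymis (log2 -8.24 ± 1.01, edgeR adjusted p = 1.54e-05). SLC16A6, a carrier of ketone bodies in fish liver, stood at 1.64, 1.13, 1.43, 0.748 and 1.60 CPM in testis, against 56.6, 33.5, 132, 36.3 and 98.5 CPM in epididymis. Here epididymis replicate 3 was the highest library, and no library overlapped with the other tissue. The level was 53.3-fold higher in epididymis (log2 -5.74 ± 0.47, edgeR adjusted p = 6.79e-07). The gene ARSG overlaps it and averaged 5.82 ± 1.50 CPM in testis and 12.0 ± 3.52 CPM in epididymis (SD, n = 5 for each tissue).

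SLC16A11 and SLC16A13 lie on top of each other in the annotation, at chromosome 12, 52434607 to 52442476 and chromosome 12, 52435519 to 52439631, so the authors' counting could have split or dropped reads between them and both counts are uncertain. SLC16A11, a proton-coupled monocarboxylate carrier tied to lipid metabolism in human liver, stood at 1.38, 1.59, 0.879, 0.748 and 1.27 CPM in testis, against 117, 156, 6.43, 53.4 and 89.2 CPM in epididymis. Epididymis replicate 3 was the lowest of its tissue by far and still above testis. The level was 71.1-fold higher in epididymis (log2 -6.15 ± 0.75, edgeR adjusted p = 1.48e-05). SLC16A13, a lactate carrier, stood at 2.10, 3.34, 1.90, 1.28 and 1.15 CPM in testis, against 70.1, 69.6, 26.9, 56.8 and 44.6 CPM in epididymis. The epididymis libraries lay closer together here, with replicate 3 again the lowest. The level was 26.7-fold higher in epididymis (log2 -4.74 ± 0.41, edgeR adjusted p = 9.36e-07).

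Testis held 2 further members at a higher level. SLC16A5, a carrier known for drug transport, stood at 24.6, 38.0, 38.3, 26.6 and 40.5 CPM in testis, against 7.38, 10.8, 16.4, 9.34 and 4.60 CPM in epididymis. The ranges did not overlap, and the level was 3.54-fold higher in testis (log2 1.82 ± 0.31, edgeR adjusted p = 0.000216). SLC16A10, the carrier of aromatic amino acids and thyroid hormone, stood at 15.4, 19.3, 17.2, 23.8 and 27.0 CPM in testis, against 1.27, 0.821, 17.9, 2.28 and 1.47 CPM in epididymis. Epididymis replicate 3 was in the testis range while the other epididymis libraries stayed at 0.821 to 2.28 CPM. The gene was called higher in testis (log2 2.16 ± 0.75, edgeR adjusted p = 0.0201), and without epididymis replicate 3 the log2 was 3.81 (edgeR adjusted p = 4.60e-07).

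SLC16A9, linked in humans to carnitine efflux, showed the same pattern of libraries, with 3.90 ± 1.40 CPM in testis and 1.64 ± 3.31 CPM in epididymis (SD, n = 5 for each tissue). Its epididymis mean came from replicate 3, at 7.57 CPM, against 0.0979 to 0.255 CPM in the others, and testis ranged over 2.56 to 6.16 CPM. The difference was not called (log2 1.31 ± 1.04, edgeR adjusted p = 0.267), whereas it was called higher in testis without that library (log2 4.59, edgeR adjusted p = 2.52e-06) and with the boar as a block (log2 3.52, edgeR adjusted p = 0.0165).

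SLC16A14, without an established substrate, stood at 12.5, 10.3, 10.4, 12.9 and 12.3 CPM in testis, against 7.48, 10.5, 9.21, 8.62 and 7.93 CPM in epididymis. Only epididymis replicate 2 reached into the testis range, and the difference missed the threshold narrowly (log2 0.43 ± 0.19, edgeR adjusted p = 0.0507). It was called higher in testis without testis replicate 3 (edgeR adjusted p = 0.0385) and without epididymis replicate 2 (edgeR adjusted p = 0.0221). Others were low and not called. SLC16A4 averaged 2.28 ± 0.495 CPM in testis and 2.33 ± 0.842 CPM in epididymis (log2 -0.03 ± 0.33, edgeR adjusted p = 0.937), and SLC16A8, or MCT3, the lactate carrier of the retinal pigment epithelium, averaged 1.68 ± 0.861 CPM in testis and 1.15 ± 0.613 CPM in epididymis (log2 0.54 ± 0.51, edgeR adjusted p = 0.352).

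Of 9 rows of organic anion transporting polypeptides of the SLCO family 8 were tested, 4 were higher in testis, 3 were higher in epididymis and SLCO2B1 alone was not called. All 7 called members passed the 2-fold test as well, and the 7 did not overlap between tissues. Over all genes 74.4% were called in either direction, 50.7% passed the 2-fold test and 61.4% did not overlap, and with 8 genes nothing particular to the family can be read from its counts. SLCO5A1, a member without an established substrate, and SLCO6A1, a testis member of the family, were close to undetected in epididymis.

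SLCO5A1 (chromosome 4, 65439221 to 65589115) stood at 52.8, 49.5, 56.6, 57.1 and 50.9 CPM in testis, against 0.102, 0.110, 0.912, 0 and 0.196 CPM in epididymis. The testis libraries were within a narrow range, and in epididymis only replicate 3 came near 1 CPM. The level was 194-fold higher in testis (log2 7.60 ± 0.66, edgeR adjusted p = 1.04e-06), with a log2 of 8.91 without epididymis replicate 3. SLCO6A1 (chromosome 2, 107920518 to 108017675) stood at 42.8, 33.7, 33.8, 44.6 and 39.7 CPM in testis, against 0, 0.0548, 0.866, 0.445 and 0.147 CPM in epididymis. Again epididymis replicate 3 was the highest of its tissue and replicate 1 had no read. The level was 127-fold higher in testis (log2 6.99 ± 0.66, edgeR adjusted p = 1.95e-06), with a log2 of 7.89 without epididymis replicate 3. Haploid germ cell markers were likewise highest in that epididymis library, as given above, and their part in these reads was not tested.

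SLCO2A1, the prostaglandin transporter, was the most abundant of the SLCO family in testis per kilobase. It stood at 133, 167, 152, 60.7 and 122 CPM in testis, against 27.4, 37.0, 17.003, 23.1 and 14.0 CPM in epididymis. Testis replicate 4 was the lowest of its tissue and still above every epididymis library. The level was 5.44-fold higher in testis (log2 2.44 ± 0.34, edgeR adjusted p = 4.61e-05). SLCO3A1, a carrier of prostaglandins and thyroxine, stood at 17.2, 21.5, 21.5, 15.9 and 18.8 CPM in testis, against 2.75, 4.54, 14.3, 5.34 and 5.97 CPM in epididymis. Epididymis replicate 3 came closest to testis, without overlap, and the level was 2.96-fold higher in testis (log2 1.56 ± 0.37, edgeR adjusted p = 0.00233).

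SLCO4A1, a carrier of thyroid hormones and prostaglandins, was the most abundant of the SLCO family in epididymis per kilobase, with little spread in both tissues. SLCO4A1 (chromosome 17, 61947636 to 61969391) stood at 2.66, 3.48, 3.29, 2.89 and 3.45 CPM in testis, against 108, 117, 81.5, 118 and 121 CPM in epididymis. No library came near the other tissue, epididymis replicate 3 included. The level was 34.1-fold higher in epididymis (log2 -5.09 ± 0.21, edgeR adjusted p = 9.61e-09). SLCO1A2, a carrier of bile acids and steroid conjugates, stood at 5.53, 3.61, 4.58, 7.16 and 3.61 CPM in testis, against 30.7, 37.5, 43.4, 19.2 and 60.6 CPM in epididymis. The ranges were apart, and the level was 7.82-fold higher in epididymis (log2 -2.97 ± 0.34, edgeR adjusted p = 8.72e-06). PYROXD1 overlaps SLCO1A2 and averaged 1.30 ± 1.07 CPM in testis and 7.86 ± 0.681 CPM in epididymis (SD, n = 5 for each tissue).

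SLCO4C1, a carrier of thyroid hormones and cardiac glycosides in kidney, stood at 0.512, 0.993, 0.417, 0.427 and 0.657 CPM in testis, against 6.11, 6.08, 10.1, 1.22 and 30.2 CPM in epididymis. Replicate 5 was far above the other epididymis libraries and replicate 4 was only just above testis. The level was 17.5-fold higher in epididymis (log2 -4.13 ± 0.75, edgeR adjusted p = 0.000337), with a log2 of -3.25 without epididymis replicate 5. SLCO2B1, which takes up steroid sulphates, stood at 27.5, 28.5, 26.1, 18.4 and 27.5 CPM in testis, against 16.5, 27.9, 28.1, 29.0 and 12.5 CPM in epididymis. Both tissues covered much of the same range, with testis replicate 4 below the other testis libraries (log2 0.20 ± 0.25, edgeR adjusted p = 0.479, not called). SLCO1C1, a thyroxine carrier of brain capillaries, did not pass the filter, with 53 reads in testis and 18 in epididymis.

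Of 12 rows of sodium-coupled transporters of the SLC5A family 8 were tested, 4 were higher in testis, 2 were higher in epididymis and 2 were not called. The 6 called members are close to the 74.4% called over all genes, and all 6 passed the 2-fold test, as 50.7% of all genes did. The main sodium and glucose cotransporters of kidney and gut went opposite ways, with SLC5A2, or SGLT2, higher in testis and SLC5A1, or SGLT1, higher in epididymis.

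SLC5A2 (chromosome 3, 17081138 to 17089422) stood at 39.2, 64.6, 52.6, 33.4 and 20.7 CPM in testis, against 0.204, 0.110, 0.228, 0.167 and 0.734 CPM in epididymis. The testis libraries differed by up to 3.13-fold among themselves, and no epididymis library reached 1 CPM. The level was 144-fold higher in testis (log2 7.17 ± 0.56, edgeR adjusted p = 4.27e-07), with a log2 of 7.86 without epididymis replicate 5. SLC5A2 overlaps C3H16orf58 in the annotation, a name with no row in the count tables. SLC5A1 (chromosome 14, 48566400 to 48704145) stood at 14.6, 16.6, 15.4, 8.66 and 14.7 CPM in testis, against 131, 146, 6.43, 24.7 and 878 CPM in epididymis. The epididymis libraries spread from below the testis range, in replicate 3, to far above it, in replicate 5, and so the tissues overlapped. The level was called 17.2-fold higher in epididymis (log2 -4.10 ± 1.06, edgeR adjusted p = 0.00389), and without epididymis replicate 5 the log2 was -2.49 (edgeR adjusted p = 0.00953).

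SLC5A6, the carrier of biotin and pantothenate, stood at 46.7, 40.2, 49.8, 32.3 and 35.9 CPM in testis, against 210.5, 151, 44.1, 134 and 232 CPM in epididymis. Epididymis replicate 3 lay within the testis range and the other 4 were above it. The level was 3.75-fold higher in epididymis (log2 -1.91 ± 0.38, edgeR adjusted p = 0.00069). ATRAID overlaps this gene, so its counts may be incomplete or shared.

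SLC5A10, a carrier of mannose and fructose in kidney, stood at 119, 141, 132, 46.0 and 148 CPM in testis, against 78.7, 86.0, 44.1, 68.5 and 82.5 CPM in epididymis. Testis replicate 4 was far below the other testis libraries and lay in the epididymis range. The difference missed the threshold (log2 0.72 ± 0.32, edgeR adjusted p = 0.0555) and was called higher in testis without testis replicate 4 (log2 0.93, edgeR adjusted p = 0.00252). FAM83G, which overlaps SLC5A10 together with GRAP, averaged 1.10 ± 0.341 CPM in testis and 33.9 ± 17.5 CPM in epididymis (SD, n = 5 for each tissue), so part of the SLC5A10 reads in epididymis could belong to it.

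SLC5A3, the sodium-coupled carrier of myo-inositol, stood at 21.2, 16.3, 15.9, 2.73 and 18.9 CPM in testis, against 8.81, 8.76, 175, 20.1 and 24.4 CPM in epididymis. Testis replicate 4 was far below and epididymis replicate 3 far above the rest of their tissues. The difference was not called (log2 -1.59 ± 0.83, edgeR adjusted p = 0.0999), and its log2 was near 0, at -0.04, without epididymis replicate 3 alone (edgeR adjusted p = 0.945) and at 0.05 without epididymis replicates 3 and 4. SLC5A3 lies within MRPS6 in the annotation, which makes its counts uncertain.

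The other SLC5A members were low. SLC5A4, a glucose transporter of low affinity in pigs and a glucose sensor in humans, averaged 5.68 ± 1.25 CPM in testis and 1.51 ± 0.514 CPM in epididymis and was higher in testis (log2 1.92 ± 0.31, edgeR adjusted p = 0.000129) without overlap. SLC5A9, a mannose carrier, averaged 0.943 ± 0.209 CPM in testis and 0.224 ± 0.195 CPM in epididymis and was higher in testis (log2 2.10 ± 0.59, edgeR adjusted p = 0.00613). SLC5A5, the iodide carrier of the thyroid, held 91 reads in testis and 3 in epididymis, 26.0 times as many relative to the totals, with counting limits of 8.64 and 129 at 95% confidence, and was called higher in testis (edgeR adjusted p = 1.48e-05). Of the 4 rows that did not pass the filter, SLC5A7, the choline carrier of nerve endings, held 35 reads in testis and 8 in epididymis. SLC5A8, a sodium-coupled monocarboxylate carrier, held 58 reads in testis and 9 in epididymis. SLC5A12, its relative, held 3 reads in testis and 34 in epididymis, of which epididymis replicate 3 had most, at 1.37 CPM. SLC5A11, an inositol carrier, had 3 reads in each tissue.

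Among the rows of facilitative sugar transporters of the SLC2A family, which hold neither SLC2A1 nor SLC2A3, the same 2 genes led in both tissues. Neither of the 2 was called. Of 11 rows 8 were tested, 1 was higher in testis, 3 were higher in epididymis and 4 were not called. Beside this, 36.6% of all genes were called higher in testis, 37.8% higher in epididymis and 74.4% in either direction. With 8 genes nothing particular to the family can be read from its counts. SLC2A5, or GLUT5, the fructose transporter, stood at 136, 126, 128, 119 and 132 CPM in testis, against 143, 67.3, 59.2, 194 and 14.6 CPM in epididymis. Testis libraries lay within a narrow band in the midst of a wide epididymis range (log2 0.47 ± 0.48, edgeR adjusted p = 0.393, not called). SLC2A8, or GLUT8, an intracellular hexose transporter known for its high level in testis, stood at 103, 85.8, 98.7, 93.9 and 96.2 CPM in testis, against 126, 127, 30.5, 96.4 and 109 CPM in epididymis. Epididymis replicate 3 was low, the other 4 were level with testis or slightly above it, and the difference was not called (log2 -0.03 ± 0.32, edgeR adjusted p = 0.934). The interval that the approximate SE gives leaves room for larger differences in either direction, so equality is not shown. Without epididymis replicates 3 and 4, SLC2A8 was called higher in epididymis (log2 -0.39, edgeR adjusted p = 0.0354).

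SLC2A4, or GLUT4, the insulin-responsive transporter of muscle and fat, stood at 1.49, 1.26, 1.53, 0.962 and 0.698 CPM in testis, against 12.5, 16.4, 22.6, 9.84 and 3.53 CPM in epididymis. No testis library reached the epididymis range, and the level was 10.6-fold higher in epididymis (log2 -3.41 ± 0.47, edgeR adjusted p = 3.60e-05). SLC2A4RG, named for its action on the SLC2A4 promoter, stood at 12.7, 16.8, 15.0, 7.75 and 12.6 CPM in testis, against 60.2, 85.1, 62.6, 27.6 and 60.8 CPM in epididymis. The ranges were apart here too, and the level was 4.52-fold higher in epididymis (log2 -2.18 ± 0.33, edgeR adjusted p = 7.59e-05). Smooth muscle markers, another place of SLC2A4, summed to 182 to 306 CPM in testis and 4636 to 13020.1 CPM in epididymis over 4 genes. The 4 adipocyte markers summed to 57.8 to 66.7 CPM in testis and 0.588 to 55.1 CPM in epididymis, highest in replicate 3, where SLC2A4 was highest too. They did not run 1 way. LEP made up most of the testis sum, at 42.6 to 54.0 CPM, and ADIPOQ averaged 12.2 CPM in testis and 6.23 CPM in epididymis. FABP4 stood at 0 to 0.107 CPM in testis and 0.343 to 13.4 CPM in epididymis, and PLIN1 averaged 1.20 CPM in testis and 4.02 CPM in epididymis. The part of muscle and of fat in the SLC2A4 difference was not tested.

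SLC2A13, which carries myo-inositol with protons, averaged 6.28 ± 1.37 CPM in testis and 1.60 ± 0.826 CPM in epididymis and was higher in testis (log2 1.98 ± 0.38, edgeR adjusted p = 0.000474) without overlap. SLC2A10, mutated in a human disorder of the arteries, averaged 4.09 ± 0.200 CPM in testis and 7.37 ± 2.56 CPM in epididymis and was higher in epididymis (log2 -0.84 ± 0.27, edgeR adjusted p = 0.015) without overlap, though not beyond 2-fold. SLC2A6, an intracellular member, averaged 4.40 ± 1.33 CPM in testis and 6.72 ± 2.54 CPM in epididymis (log2 -0.60 ± 0.32, edgeR adjusted p = 0.113, not called), and passed in favour of epididymis without replicate 5 of that tissue (edgeR adjusted p = 0.0432). SLC2A12 averaged 4.92 ± 1.48 CPM in testis and 6.95 ± 3.64 CPM in epididymis (log2 -0.50 ± 0.39, edgeR adjusted p = 0.263, not called).

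SLC2A7, or GLUT7, did not pass the filter. It had 0 reads in every testis library, against 8.35, 2.85, 0, 17.7 and 1.71 CPM in epididymis replicates 1 to 5. Only epididymis replicate 3 lacked it too. Against a floor of 3 reads over the testis libraries its level was at least 234-fold higher in epididymis. SLC2A2, the transporter of liver and pancreas, held 10 reads in testis and 125 in epididymis, and SLC2A9, a urate carrier, held 24 reads in testis and 51 in epididymis. One further row carries an Ensembl identifier that the gene name table gives as SLC2A11. It is no member under the naming rule, averaged 16.8 ± 5.31 CPM in testis and 9.72 ± 5.07 CPM in epididymis (SD, n = 5 for each tissue), and was not called (log2 0.82, edgeR adjusted p = 0.0563).

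Levels of different genes were compared per kilobase of the gene length in the deposited files, as a share of the reads per kilobase of a family in the same library (SLC2A4RG left out). The sum over the SLC16A family, in CPM per kilobase, was 22.6 to 25.7 in testis and 65.0 to 173 in epididymis. It was the only family sum that was higher in all epididymis libraries than in all testis libraries. The SLCO sum ran the other way, at 58.1 to 80.8 in testis and 40.4 to 51.0 in epididymis. This separation depended on the division by length. Without it the SLCO sums overlapped, at 207 to 309 CPM in testis and 192 to 245 CPM in epididymis. The SLC16A sums stayed apart without it, at 138 to 166 CPM in testis and 274 to 897 CPM in epididymis. The sums of the other families overlapped, at 55.0 to 70.3 in testis and 32.1 to 62.6 in epididymis for SLC22A, 29.8 to 54.1 in testis and 40.4 to 176 in epididymis for SLC5A, and 80.5 to 89.7 in testis and 36.4 to 127 in epididymis for SLC2A.

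Per kilobase, the leading gene changed with the tissue in 3 families, as the plot of family make-up shows. In the SLC16A family SLC16A5 led in testis, with 26.2% ± 4.91 of the reads per kilobase in testis and 1.67% ± 1.72 in epididymis (SD, n = 5 for each tissue). SLC16A11 led in epididymis on average, with 3.18% ± 0.912 in testis and 33.3% ± 19.9 in epididymis (SD, n = 5 for each tissue). Its share ranged over 6.39% to 58.9% in epididymis, and in replicate 3 SLC16A6 took 52.3% and in replicate 4 SLC16A1 took 37.0%. In the SLCO family SLCO2A1 led in testis with 41.3% ± 9.54, against 13.0% ± 4.81 in epididymis (SD, n = 5 for each tissue). SLCO4A1 took 0.953% ± 0.125 in testis and 53.7% ± 7.43 in epididymis (SD, n = 5 for each tissue), the largest share of the family in each epididymis library.

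In the SLC5A family SLC5A2 led in testis with 39.8% ± 10.3, against 0.150% ± 0.0612 in epididymis (SD, n = 5 for each tissue). SLC5A6 led in epididymis on average, with 23.1% ± 3.26 in testis and 51.0% ± 21.3 in epididymis (SD, n = 5 for each tissue). It did so in epididymis replicates 1, 2 and 4, whereas SLC5A3 took 60.3% in replicate 3 and SLC5A1 took 62.9% in replicate 5. In the other families the leader on average was the same in both tissues per kilobase. SLC22A17 took 29.3% ± 4.66 of the SLC22A reads per kilobase in testis and 50.4% ± 4.01 in epididymis, and SLC2A5 took 70.8% ± 1.43 of the SLC2A reads per kilobase in testis and 51.3% ± 20.7 in epididymis (SD, n = 5 for each tissue). SLC22A14, second in the SLC22A family in testis with 26.2% ± 2.96, took 0.802% ± 0.361 in epididymis (SD, n = 5 for each tissue). Single libraries departed from this, since SLC22A14 took 29.8% and SLC22A17 21.4% in testis replicate 4, and SLC2A8 took 60.9% and SLC2A5 18.7% in epididymis replicate 5. Among the testis libraries, SLC16A7 also led its family in replicates 1 and 4, SLCO5A1 in replicate 4 and SLC5A10 in replicate 5. Without division by length the leaders on average differed between the tissues in all 5 families. They were SLC22A23 in testis and SLC22A17 in epididymis, SLC16A7 in testis and SLC16A1 in epididymis, SLCO2A1 in testis and SLCO4A1 in epididymis, SLC5A10 in testis and SLC5A6 in epididymis, and SLC2A5 in testis and SLC2A8 in epididymis.

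**Figure D3:**
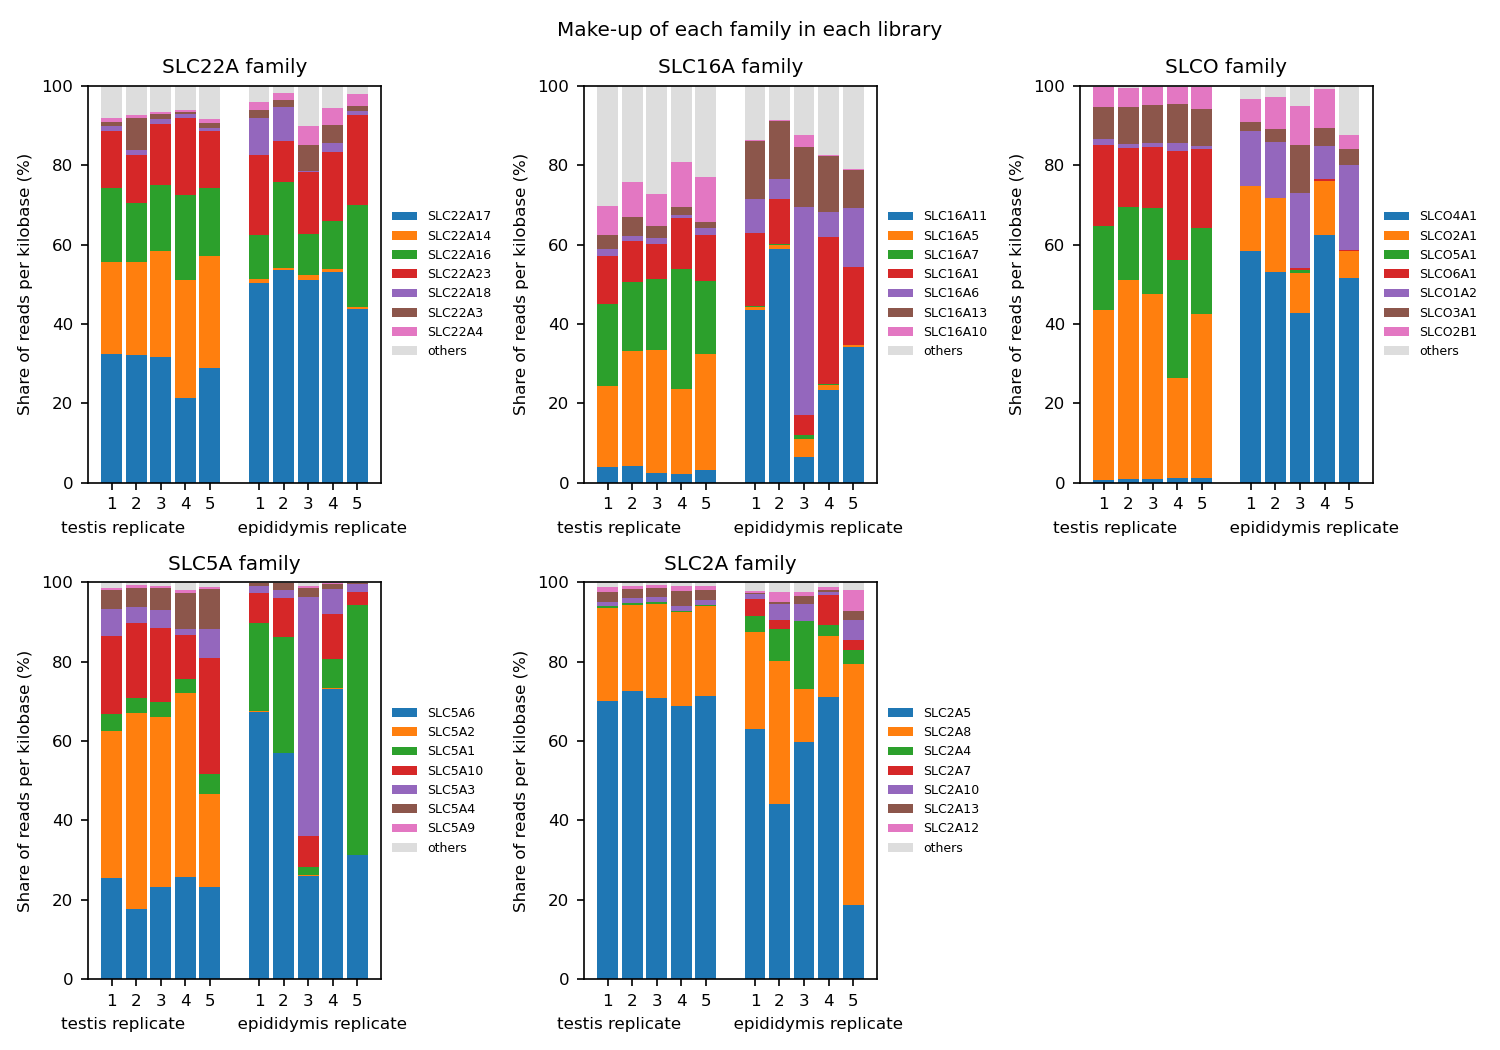
Share of each gene in the reads per kilobase of its family, in percent, for testis replicates 1 to 5 (left of each panel) and epididymis replicates 1 to 5 (right); the 7 genes with the largest shares are coloured and the rest are grey. SLCO4A1 takes 42.9% to 62.5% of its family in every epididymis library and 0.775% to 1.08% in testis, and epididymis replicate 3 differs from the other epididymis libraries in the SLC16A and SLC5A panels.

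Within a tissue the spread between libraries was small in testis and large in epididymis. Each boar gave 1 library per tissue, so boar, part of the organ sampled, cell make-up and library cannot be told apart in this spread. Over the 31 genes of at least 10 CPM, the highest testis library was 1.14 times the lowest for SLC2A5 and 7.76 times for SLC5A3, with a median of 1.68 times. In epididymis it was 1.40 times for SLC16A14 and 137 times for SLC5A1, with a median of 3.94 times, leaving out SLCO5A1 and SLCO6A1, which had a library at 0. The ratio was above 4 for 1 gene in testis and for 14 in epididymis. Epididymis replicate 3 was the lowest library of its tissue for 13 of the 43 transporters with at least 1 CPM on average in epididymis and the highest for 15. Of all 14741 rows with that average, it was the lowest for 3300 and the highest for 4339. In this library SLC16A1, SLC16A11, SLC16A12, SLC2A7 and SLC2A2 lay at least 4-fold below all other epididymis libraries. SLC5A3, SLC16A10, SLC16A9 and SLC22A6 lay at least 4-fold above them. By less than 4-fold, replicate 3 was also, among others, the lowest for SLC5A1, SLC5A6 and SLC2A8 and the highest for SLC16A6 and SLCO3A1. Epididymis replicate 5 held the highest SLC5A1 and SLCO4C1 levels and the lowest SLC2A5 and SLC2A4 levels.

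**Figure D4:**
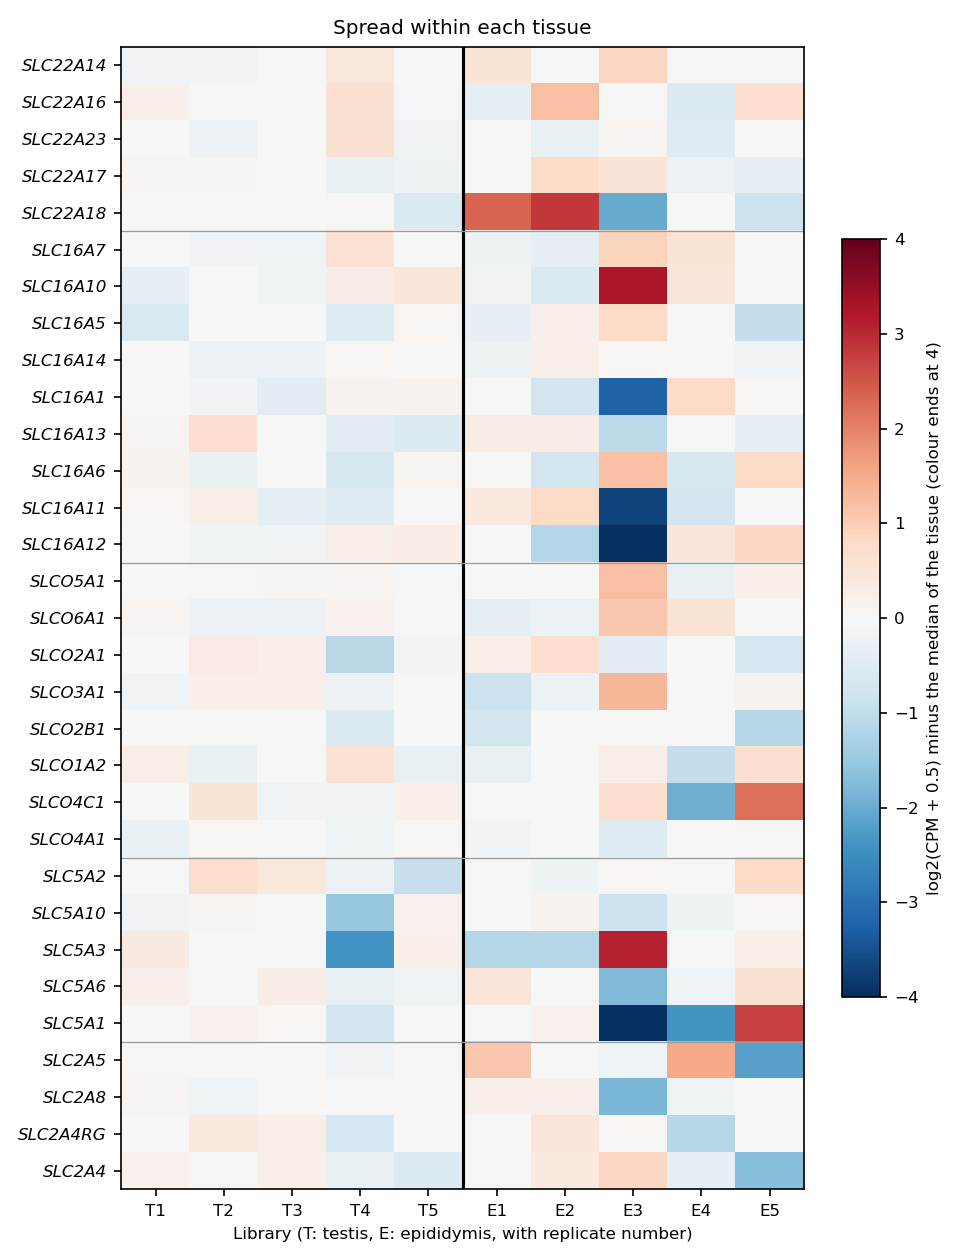
Deviation of each library from the median of its tissue, as log2 of CPM plus 0.5, for the 31 genes of at least 10 CPM; T and E with a number are testis and epididymis replicates, red is above and blue below the median, and the colour scale ends at 4. Testis replicate 4 is low for SLC5A3 and SLC5A10, epididymis replicate 3 stands out in both directions, and epididymis replicate 5 is high for SLC5A1 and SLCO4C1.

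Some members are neighbours on a chromosome, and neighbours did not always lie on the same side. SLCO4C1 (chromosome 2, 107815058 to 107887399) and SLCO6A1 lie 33118 bases apart on chromosome 2 with 1 coding gene between them, and SLCO6A1 was higher in testis while SLCO4C1 was higher in epididymis. SLC5A1 and SLC5A4 (chromosome 14, 48708047 to 48741440) lie 3901 bases apart with none between, and SLC5A4 was higher in testis while SLC5A1 was higher in epididymis. SLC2A7 (chromosome 6, 69483736 to 69503758) lies 4070 bases from SLC2A5 (chromosome 6, 69507829 to 69535794), and SLC2A7 was without a read in testis where SLC2A5 was at 119 to 136 CPM. SLC22A13 and SLC22A14, 19740 bases apart on chromosome 13, were both called higher in testis, at log2 1.75 and 5.49. SLC22A2 and SLC22A3, next to each other on chromosome 1, averaged at most 5.63 CPM in testis and 5.74 CPM in epididymis and were not called where tested.

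Genes that make, use or hold the same solutes were read from the same fit, in 6 lists of 57 rows with 55 tested. Not every listed name had a row. Rows were found for 13 of 14 names for carnitine, 10 of 12 for lactate and pyruvate and 13 of 13 for sugars. For conjugates they were found for 12 of 17 names, for inositol for 4 of 6 and for scaffolds and helpers for 5 of 9. The edgeR calls favoured testis for 20 and epididymis for 21, which is close to the shares of all genes. Genes named in counts of 5 or fewer were in part named after their values were seen. The counts of single lists stand beside 36.6% of all genes called higher in testis and 37.8% called higher in epididymis, and no list was tested against these shares. For carnitine, 7 of 13 genes were higher in testis and 3 higher in epididymis. CRAT, carnitine acetyltransferase, averaged 599.5 ± 69.8 CPM in testis and 194 ± 55.8 CPM in epididymis (log2 1.64 ± 0.26, edgeR adjusted p = 0.000113). CPT1B, which loads long fatty acids onto carnitine, averaged 119 ± 10.5 CPM in testis and 52.9 ± 21.0 CPM in epididymis (log2 1.18 ± 0.25, edgeR adjusted p = 0.00121). CPT1A, its relative, averaged 155 ± 47.9 CPM in testis and 39.4 ± 40.0 CPM in epididymis (log2 2.02 ± 0.52, edgeR adjusted p = 0.0038), with a log2 of 2.83 without epididymis replicate 3. SLC25A20, which passes acylcarnitines into mitochondria, averaged 57.7 ± 6.70 CPM in testis and 12.7 ± 12.0 CPM in epididymis (log2 2.22 ± 0.47, edgeR adjusted p = 0.000987), with a log2 of 2.95 without epididymis replicate 3. CROT, the peroxisomal octanoyltransferase, ran the other way at 8.55 ± 2.83 CPM in testis and 92.3 ± 25.8 CPM in epididymis (log2 -3.42 ± 0.27, edgeR adjusted p = 4.95e-07), as did SHMT1 and CPT1C.

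For lactate and pyruvate, 2 of 10 genes were higher in testis and 6 higher in epididymis. BSG and MPC1 were on the list but had no row. LDHC, the lactate dehydrogenase of male germ cells, averaged 144 ± 29.6 CPM in testis and 0.803 ± 0.884 CPM in epididymis (log2 7.49 ± 0.59, edgeR adjusted p = 4.54e-07), with a log2 of 8.44 without epididymis replicate 3. MPC2, a subunit of the mitochondrial pyruvate carrier, averaged 57.6 ± 4.72 CPM in testis and 15.1 ± 4.73 CPM in epididymis (log2 1.96 ± 0.22, edgeR adjusted p = 9.33e-06). LDHA, the common lactate dehydrogenase subunit, averaged 131 ± 54.8 CPM in testis and 375 ± 213 CPM in epididymis (log2 -1.53 ± 0.46, edgeR adjusted p = 0.0101), with overlapping ranges. NPTN, a membrane glycoprotein that can act as a chaperone of monocarboxylate transporters, averaged 38.9 ± 7.20 CPM in testis and 163 ± 46.6 CPM in epididymis (log2 -2.05 ± 0.21, edgeR adjusted p = 4.26e-06). LDHD, which uses the other isomer of lactate, was not called at 112 ± 16.97 CPM in testis and 99.6 ± 29.6 CPM in epididymis (log2 0.19 ± 0.23, edgeR adjusted p = 0.453). LDHC and the carrier SLC16A7 were thus both higher in testis, and LDHA and the carrier SLC16A1 both higher in epididymis.

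For sugars, 4 of 13 genes were higher in testis and 6 higher in epididymis. SORD, which makes fructose from sorbitol, averaged 125 ± 22.6 CPM in testis and 7.63 ± 3.92 CPM in epididymis (log2 4.08 ± 0.33, edgeR adjusted p = 6.16e-07). HK1, the widespread hexokinase, averaged 481 ± 142 CPM in testis and 204 ± 35.5 CPM in epididymis (log2 1.24 ± 0.22, edgeR adjusted p = 0.000299), and KHK, which phosphorylates fructose, averaged 123 ± 27.6 CPM in testis and 43.2 ± 12.3 CPM in epididymis (log2 1.51 ± 0.25, edgeR adjusted p = 0.00015). AKR1B1, which makes sorbitol from glucose, averaged 161 ± 21.6 CPM in testis and 610.5 ± 395 CPM in epididymis (log2 -1.87 ± 0.41, edgeR adjusted p = 0.00126). HK2 averaged 85.4 ± 16.3 CPM in testis and 318 ± 214 CPM in epididymis (log2 -1.85 ± 0.37, edgeR adjusted p = 0.000688). TXNIP, which withdraws glucose transporters from the membrane, averaged 148 ± 34.5 CPM in testis and 419 ± 203 CPM in epididymis (log2 -1.47 ± 0.33, edgeR adjusted p = 0.00148).

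For steroid and organic anion conjugates, 5 of 10 tested genes were higher in testis and 2 higher in epididymis. SULT2A1, the hydroxysteroid sulphotransferase, averaged 225 ± 55.6 CPM in testis and 2.11 ± 3.02 CPM in epididymis (log2 6.78 ± 1.04, edgeR adjusted p = 9.37e-05), with a log2 of 8.03 without epididymis replicate 3. ABCC1, an exporter of conjugates, averaged 385 ± 88.3 CPM in testis and 85.1 ± 56.4 CPM in epididymis (log2 2.23 ± 0.37, edgeR adjusted p = 0.000178). SULT2B1, the cholesterol sulphotransferase, averaged 0.676 ± 0.266 CPM in testis and 87.8 ± 61.4 CPM in epididymis (log2 -6.99 ± 0.89, edgeR adjusted p = 2.10e-05). ABCC3, another exporter, was not called at 74.6 ± 28.8 CPM in testis and 82.4 ± 32.1 CPM in epididymis (log2 -0.12 ± 0.34, edgeR adjusted p = 0.754). SLC51B was also higher in epididymis, and SLC10A6 and UGT2B31 did not pass the filter.

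For inositol, ISYNA1, which makes it from glucose 6-phosphate, was the only one of 4 genes called, higher in testis at 1354 ± 151 CPM in testis and 303 ± 194 CPM in epididymis (log2 2.18 ± 0.40, edgeR adjusted p = 0.000402). CDIPT and ITPK1, which use inositol for lipids and phosphates, averaged 64.0 ± 9.49 CPM in testis and 88.4 ± 16.97 CPM in epididymis (log2 -0.44 ± 0.19, edgeR adjusted p = 0.0551) and 70.0 ± 13.8 CPM in testis and 77.1 ± 15.6 CPM in epididymis (log2 -0.12 ± 0.22, edgeR adjusted p = 0.639). CDIPT passed in favour of epididymis without testis replicate 2 (edgeR adjusted p = 0.0376) and without epididymis replicate 3 (edgeR adjusted p = 0.0115). Of 5 scaffolds and helpers, SLC26A6 was higher in testis and 4 were higher in epididymis. PDZK1, which anchors SLC22A and SLCO proteins, stood at 0.102, 0.265, 0.555, 0.214 and 0.287 CPM in testis, against 31.8, 9.96, 917, 155 and 1.71 CPM in epididymis. Epididymis replicate 3 was far above the rest and replicate 5 just above testis, without overlap (log2 -9.49 ± 1.71, edgeR adjusted p = 0.000318), with a log2 of -7.33 without epididymis replicate 3. SLC9A3R1, another scaffold, averaged 15.9 ± 2.99 CPM in testis and 149 ± 64.6 CPM in epididymis (log2 -3.22 ± 0.36, edgeR adjusted p = 7.21e-06), SLC9A3R2 averaged 31.7 ± 6.49 CPM in testis and 64.3 ± 22.8 CPM in epididymis (log2 -1.01 ± 0.27, edgeR adjusted p = 0.00507), and RSC1A1, named for its action on SLC5A1, averaged 21.4 ± 2.86 CPM in testis and 56.1 ± 15.1 CPM in epididymis (log2 -1.36 ± 0.20, edgeR adjusted p = 7.12e-05).

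**Figure D5:**
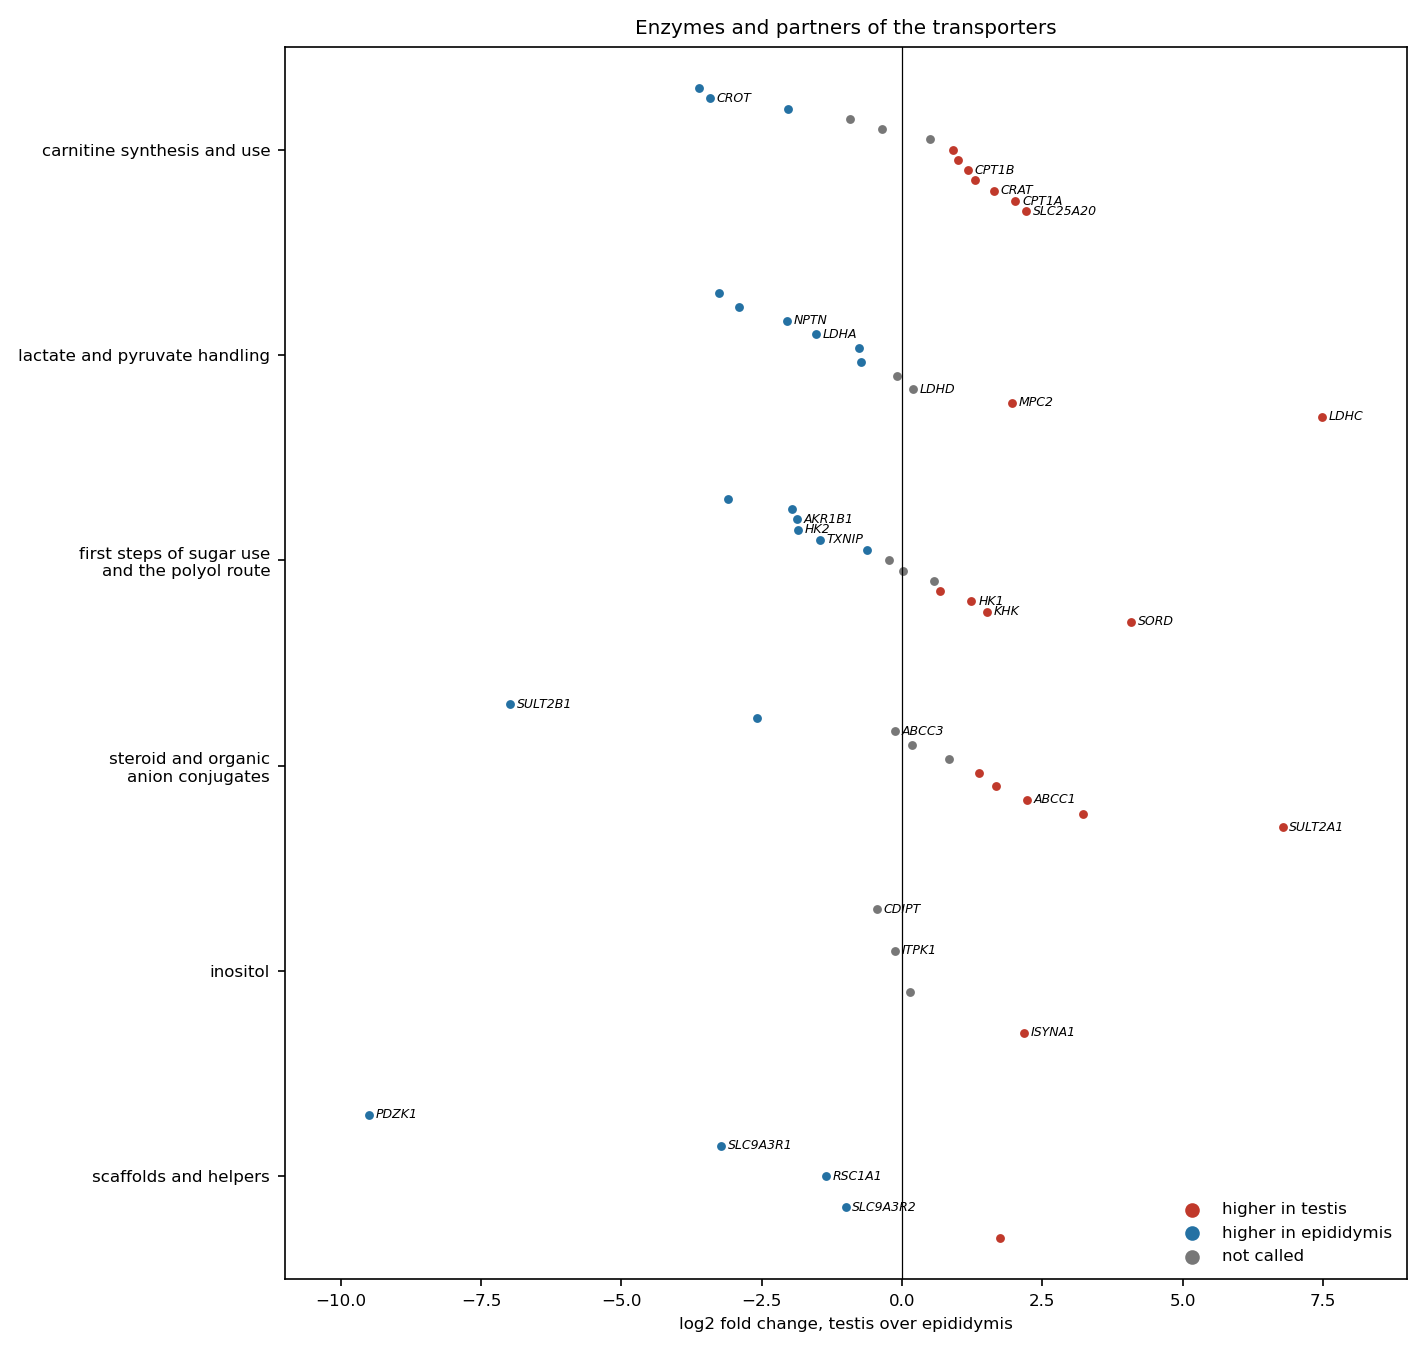
Log2 fold change, testis over epididymis, of the 55 tested genes that make, use or hold the solutes of the transporters, in 6 lists; red is higher in testis, blue higher in epididymis and grey not called, and genes given with values in the text are labelled. The values run from 7.49 for LDHC to -9.49 for PDZK1, and most lists hold genes on both sides.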

How the data were processed

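RNA of testis and epididymis from 5 Banna mini-pig boars was sequenced in 10 short-read libraries. Per the labels' protocols, oligo(dT) beads selected polyadenylated RNA, from which SMARTer cDNA was made, size-selected and amplified. The submitters' processing notes name cutadapt 3.0, STAR and featureCounts (Subread) with build Sscrofa11.1. The sources used here state neither strand nor multimapping settings, so reads of overlapping genes cannot be told apart. The deposited values are raw counts per gene, with the gene length of the authors' annotation beside them, which is no measurement. Without molecular identifiers, amplified copies are counted too, and so floors and limits reflect counting error alone.

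Totals ran from 17980578 to 30211957 reads. No 2 libraries were identical, and all were kept as replicates. The tissues were compared with edgeR 4.0.16 in R 4.3.3 (filterByExpr, TMM, robust quasi-likelihood test, tissue as the only term) over 17225 genes, with Benjamini-Hochberg adjustment over all of them and a threshold of 0.05, and glmTreat asked for more than 2-fold. Scripts were tested on simulated data. Approximate standard errors are the unshrunken log2 fold change over the square root of F. CPM use the library total.

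The animal numbers in the file headers pair the libraries by boar, although same-numbered libraries deviated together only weakly (correlations 0.00656 to 0.0992). Correlations between libraries of different boars ran from -0.0972 to 0.119, a range that holds those of the matched pairs. A fit with the boar as a block, DESeq2 1.42.0, other scalings, no filter, and fits without single libraries were the alternatives. Members with a mean of at least 10 CPM in 1 tissue are given in every library and all others by their means or reads. Partner genes were given with values only if among the 3 highest of their list or past the 2-fold test with at least 50 CPM in 1 tissue. SHMT1, CPT1C, SLC51B and SLC26A6 fall outside this rule and were named by their direction alone. Coordinates, counted from 1, are of the RefSeq gene table of Sscrofa11.1, which placed 62 of the 63 members. The members and the lists were chosen with earlier results of these data known. Long-read libraries were not used here, and results of a few genes that enter the counts are not reported here.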

Additional observations from a re-analysis of the deposited data

Results flagged for a closer look

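In 56 sets of 5 libraries, one for each gene of at least 10 CPM in a tissue where its mean was at least 1 CPM, Dixon's ratio at its 95% critical value of 0.71 singled out 12 values, and chance alone would single out about 1 in 20 sets. Testis replicate 4 held 7 of the 12 values, epididymis replicate 3 held 3, and testis replicate 5 and epididymis replicate 5 held 1 each.

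In testis replicate 4, SLC16A7 was above the rest at 51.9 CPM, against 31.0 to 34.9 CPM in the other testis libraries. SLC22A14 was above them at 43.1 CPM, against 28.9 to 32.0 CPM, and SLC22A23 at 73.3 CPM, against 40.3 to 47.9 CPM. Below the rest were SLC5A1 at 8.66 CPM, against 14.6 to 16.6 CPM, and SLC5A10 at 46.0 CPM, against 119 to 148 CPM. SLC5A3 stood at 2.73 CPM, against 15.9 to 21.2 CPM, and SLCO2B1 at 18.4 CPM, against 26.1 to 28.5 CPM. In testis replicate 5, SLC22A18 was below the rest at 2.26 CPM, against 3.52 to 3.69 CPM.

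In epididymis replicate 3, SLC5A3 was above the rest at 175 CPM, against 8.76 to 24.4 CPM in the other epididymis libraries. SLC16A10 was above them at 17.9 CPM, against 0.821 to 2.28 CPM, and SLCO3A1 at 14.3 CPM, against 2.75 to 5.97 CPM. In epididymis replicate 5, SLC5A1 was above the rest at 878 CPM, against 6.43 to 146 CPM.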

How the results depend on the processing

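Counts of transporters called higher in testis (15) and in epididymis (15) were 14 to 17 and 15 to 17 when 1 library was left out and 15 to 19 in both directions under the other scalings, tools, filters, the boar as a block and without epididymis replicates 3 and 4. When testis was represented by replicate 4 alone, which leaves the spread to the epididymis libraries, they fell to 8 and 7, those beyond 2-fold to 6 and 4, those of partner genes to 12 and 7, and all genes higher in epididymis to 2145. By family, SLC2A genes higher in epididymis were 5 with DESeq2 or without the filter and 6 without epididymis replicates 3 and 4, against 3, and SLC22A genes higher in testis were 5 without the filter or without epididymis replicate 1, against 3. SLC22A genes higher in epididymis were 2 without epididymis replicate 3, without replicate 5 or without replicates 3 and 4 of that tissue, against 1. DESeq2 size factors moved the median log2 of all genes by 0.13. Without division by length, the share of SLC22A17 in epididymis was 39.7%, of SLC16A11 in epididymis 12.9%, of SLC5A2 in testis 18.3% and of SLC2A5 in testis 52.4%, because these genes are shorter than others of their families, and the leading genes changed as given above.

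The boar as a block left 12362 genes called, against 12814 without it. Among the transporters it ended the call of SLC22A13 (edgeR adjusted p = 0.11), added SLC16A9 (log2 3.52, edgeR adjusted p = 0.0165) and changed no other call at the adjusted p threshold, and partner genes called were 22 higher in testis and 20 in epididymis, against 20 and 21. Transporters beyond 2-fold (12 in testis, 13 in epididymis) were 14 and 11 with the block, 10 to 16 and 13 to 14 when 1 library was left out, and 11 to 17 and 11 to 15 under the other settings apart from testis replicate 4 alone.

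Signs turned for the following genes, of which SLC22A13 alone was called. SLC16A4 (-0.03) was at 0.094 with DESeq2 size factors, 0.096 with DESeq2, 0.031 with the block, 0.46 with testis replicate 4 alone and 0.015 without mitochondrial and small structural RNA rows, and ran from -0.21 to 0.17 without single libraries. SLC22A3 (0.06) was at -0.030 without composition factors, -0.37 with the block, -1.96 with testis replicate 4 alone and from -1.24 (without testis replicate 2) to 0.70 without single libraries. SLC2A8 (-0.03) was at 0.084 with DESeq2 size factors, 0.086 with DESeq2, 0.11 with the block, 0.029 with testis replicate 4 alone, 0.0046 without those rows and from -0.28 to 0.095 without single libraries. With testis replicate 4 alone, SLC16A8 was at -0.44, SLC22A13 at -1.34, SLC5A10 at -0.55 and SLCO2B1 at -0.19. SLC5A3 was at 0.050 without epididymis replicates 3 and 4. ABCC3 ran from -0.33 to 0.040 without single libraries, and ITPK1 was at 0.0017 with DESeq2 size factors and 0.0025 with DESeq2. The cause of these shifts was not tested.

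SLC5A10 was called higher in testis with DESeq2 size factors (edgeR adjusted p = 0.031) and SLC16A14 too (edgeR adjusted p = 0.0184). Members with few reads, such as those under 1 CPM in both tissues, are limited by depth.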
